A study of Mus musculus with 6 samples.

Results

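NKG2D is an activating receptor of cytotoxic lymphocytes, and 7 genes of its system were followed: the receptor *Klrk1*, the signaling adaptors *Hcst* (DAP10) and *Tyrobp* (DAP12), and the ligands *Raet1d*, *Raet1e*, *Ulbp1* and *H60b*. The 7 genes were chosen by name for their function from the 31053 genes of a single-cell mRNA-seq table of mouse CT26 tumors, and all 7 are in the table. CT26 is a colorectal carcinoma line, grown here in wild-type female Balb/c mice, and leukocytes were enriched from the dissociated tumors with beads against CD45, so both host cells and carcinoma cells can be present. The samples were 6 tumors in 3 groups of 2, taken after treatment with vehicle, a low dose or a high dose of a PD-1 GITR-L bispecific antibody. By the labels, the high dose was 30 mg/kg, while the low dose is stated as 10 mg/kg in the treatment protocol and as 30 mg/kg in the sample characteristics. The text of the study names an isotype control and another dose for this experiment, and which of these applies to the table is not settled here. The table names 4 libraries, M1, M2, M5 and M6, and no sample label ties these names to a tumor or a dose, so no treatment groups were compared, and the libraries were not used as replicates. Each library's value is given for itself, no test was run, and no p-value is given.

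NKG2D binds stress-induced proteins that resemble MHC class I molecules, which tumor cells and other stressed or dividing cells can display. The receptor has no signaling motif of its own and needs an adaptor: *Hcst* encodes one that recruits PI3 kinase and GRB2, and *Tyrobp* encodes one with an ITAM that recruits SYK or ZAP70 and also serves many other receptors of NK and myeloid cells. In mice a short form of NKG2D can pair with either adaptor and a long form with DAP10 only, and 3′ counts do not separate the forms. The ligands *Raet1d* and *Raet1e* belong to the RAE-1 family, *H60b* to the H60 family, and *Ulbp1* encodes MULT1.

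The receptor *Klrk1* (ENSMUSG00000030149.15) lies on the minus strand at chr6:129610323-129623864 of GRCm38. The adaptors are neighbors on chromosome 7 and point at each other: *Tyrobp* (ENSMUSG00000030579.10) at chr7:30413760-30417585 on the plus strand and *Hcst* (ENSMUSG00000064109.8) at chr7:30417712-30419854 on the minus strand, with 126 bases between their ends and no overlap. All 4 ligands are on chromosome 10: *Ulbp1* (ENSMUSG00000079685.10) at chr10:7440362-7473638 on the minus strand, and *H60b* (ENSMUSG00000075297.10) at chr10:22158586-22288849, *Raet1d* (ENSMUSG00000078452.10) at chr10:22360552-22374139 and *Raet1e* (ENSMUSG00000053219.15) at chr10:22158569-22374139, these last on the plus strand. The annotated span of *Raet1e* contains both *H60b* and *Raet1d*, and 25.2% of the exonic bases of *Raet1d* (363 of 1441) and 11% of those of *H60b* (133 of 1213) are also exonic in *Raet1e*. *Klrk1*, *Hcst*, *Tyrobp* and *H60b* had no 50-base window in the last 500 bases of their transcripts, where 3′ reads fall, that occurs in another gene. Of the *Ulbp1* windows, 0.37% did, none of them in a gene of the table. By contrast, 82.9% of the windows of *Raet1d* and 55.1% of those of *Raet1e* also occur in the other gene. Counts of *Raet1d* and *Raet1e* are therefore uncertain, since reads from one may be lost or given to the other. The RAE-1 genes *Raet1a*, *Raet1b* and *Raet1c* are not in the table. Whether their reads in the Balb/c cells were given to either gene was not tested.

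The sequence upstream of *Raet1d* and the second annotated start of *Raet1e* is shown because the 2 genes were counted highest under the same cell label and share most of it. RefSeq (GRCm38.p6) windows from 250 bases before to 50 after a start were found for *Klrk1*, *Hcst*, *Ulbp1*, *Raet1e* and *Raet1d*, with *Raet1e* having 2 starts. The set of windows used here held none for *Tyrobp* and *H60b*. The *Raet1e* window is chr10:22173247-22173546 and the *Raet1d* window is chr10:22361644-22361943, both on the plus strand. They were identical in 295 of 302 aligned columns (97.7%), and capitals mark the bases that differ. The windows are offset by 2 bases at each end, and the substitutions, counted from 1 at the 5′ end of the *Raet1e* window with the *Raet1e* base first, are T128C, C180G and C195A.
Raet1e: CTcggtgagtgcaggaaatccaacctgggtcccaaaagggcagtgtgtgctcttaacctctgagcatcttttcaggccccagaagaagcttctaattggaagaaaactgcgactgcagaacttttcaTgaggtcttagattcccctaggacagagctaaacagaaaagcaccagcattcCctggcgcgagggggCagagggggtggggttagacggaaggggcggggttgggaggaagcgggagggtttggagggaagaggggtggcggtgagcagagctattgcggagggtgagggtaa
Raet1d: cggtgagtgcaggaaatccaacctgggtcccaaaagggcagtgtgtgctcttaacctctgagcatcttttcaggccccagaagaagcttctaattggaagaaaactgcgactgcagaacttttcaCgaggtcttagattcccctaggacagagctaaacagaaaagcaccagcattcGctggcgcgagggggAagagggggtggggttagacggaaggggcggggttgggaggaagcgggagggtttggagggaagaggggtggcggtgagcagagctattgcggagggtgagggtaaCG
The first start of *Raet1e*, at chr10:22158319-22158618, was identical to the second in 167 of 362 aligned columns (46.1%).

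The windows of the receptor and of the most abundant ligand are shown with the motifs found in them in capitals, because *Klrk1* had its higher levels under labels of cytotoxic lymphocytes and *Ulbp1* in cells with transcripts of cell division. *Klrk1* is chr6:129623815-129624114 and *Ulbp1* is chr10:7473428-7473727, both on the minus strand. Searched on both strands were GGAAGT (ETS), TGTGGT (RUNX), GGTGTG (T-box), TTGGCGC (E2F) and TGACGTCA (CRE). No 2 matches overlapped.
Klrk1: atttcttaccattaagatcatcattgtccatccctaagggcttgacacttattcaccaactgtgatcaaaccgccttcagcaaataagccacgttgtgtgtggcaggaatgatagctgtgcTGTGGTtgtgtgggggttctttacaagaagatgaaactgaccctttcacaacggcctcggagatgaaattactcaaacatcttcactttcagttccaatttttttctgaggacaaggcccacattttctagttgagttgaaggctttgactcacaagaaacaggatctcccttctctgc
Ulbp1: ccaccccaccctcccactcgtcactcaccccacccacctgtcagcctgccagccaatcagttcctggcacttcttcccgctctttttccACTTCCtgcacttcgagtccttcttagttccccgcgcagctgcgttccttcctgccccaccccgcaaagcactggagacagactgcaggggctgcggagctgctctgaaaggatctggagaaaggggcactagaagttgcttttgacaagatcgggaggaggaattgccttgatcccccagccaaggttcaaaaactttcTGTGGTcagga
The *Klrk1* window held 1 RUNX match and the *Ulbp1* window held 1 ETS match and 1 RUNX match, while the *Hcst* window held 2 ETS and 2 T-box matches. Both *Raet1e* windows and the *Raet1d* window held none, and none of these windows held an E2F or CRE match. Of 32851 promoter windows of the same length, 23.8% held the ETS letters, 16.8% the RUNX letters, 19% the T-box letters, 2.45% the E2F letters and 1.79% the CRE letters. A match is a string of letters and not a binding site.

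The table holds raw counts of unique molecular identifiers (UMIs), which each mark 1 captured RNA molecule, for 33961 cells, with 7160 to 10294 cells and 158337797 to 315577167 UMIs per library. A level is given here in CPM, the UMIs of a gene over all cells of a label, divided by the UMIs of all genes in those cells and scaled so that the genes of a label sum to 1000000. Shares of cells with a UMI were taken after each cell was thinned to 2000 UMIs, since the median depth of a label ran from 2811 UMIs (B cells) to 40692 (Stroma). Intervals are exact Poisson (levels) or exact binomial (shares) 95% intervals and cover counting error only. Where no UMI was counted, the level that 3 UMIs would give is printed as the limit such a count allows. The authors assigned each cell the label of the ImmGen profile it correlated with best. The genes that entered this correlation are not listed in the sources used here. The members may be among them, so levels by label are a description. The defining markers were in place for NK cells (*Ncr1* 449.7 CPM), B cells (*Cd79a* 2444 CPM), Myeloid (*Lyz2* 6633 CPM) and DC (*Xcr1* 181 CPM). Myeloid also held T cell RNA, with *Cd3e* at 78.0 CPM (75.5 in ILC) and *Cd3d* at 131 CPM (146 in ILC). Of its 2680 cells, 351 carried unthinned UMIs of a CD3 chain and of *Cd8a* or *Cd8b1* and none of *Cd4*. The part of doublets and of free RNA in this was not tested. The ILC label, with *Ncr1* at 422 CPM, also held 2138 of 4628 cells with an unthinned UMI of a CD3 chain. *Cd3g* was at 314 CPM in ILC and 96.6 CPM in NK cells, and ILC cells were deeper (median 9773.5 against 5397 UMIs). The share of NK cells with such a UMI is not given here. The NKT label had *Cd4* at 145 CPM and *Foxp3*, the factor of regulatory T cells, at 196 CPM, with *Klrb1c* (NK1.1) at 9.25 CPM against 110.3 CPM in NK cells. The T cells label had *Cd4* at 192 CPM, *Foxp3* at 239 CPM and *Cd8a* at 1.71 CPM. Both are used as the authors' labels and not as cell types. Stroma held 15687 cells (46.2%) with *Col1a2* at 681 CPM, *Ptprc* (CD45) at 7.47 CPM and *Xist*, which marks female host cells, at 18.9 CPM against 823 to 1442 CPM in the other labels described. Stroma is used here as the authors' label and not as a cell type. A doublet score over 0.25 was found in 64 to 270 cells per library, and 111 barcodes occurred in 2 libraries. Stem cells (37 cells) were too few to describe.

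*Klrk1* was highest in the NK cell, T cell EFF, ILC and T cell MEM labels. The table held 68838 UMIs of it, of which 32.8% were in ILC, 28.2% in T cell EFF and 21.7% in NK cells. Levels in M1, M2, M5 and M6 were 423, 412, 338 and 368 CPM in NK cells, 337, 415, 370.3 and 357 CPM in T cell EFF, 326, 402, 326 and 308 CPM in ILC, and 387, 465, 309.5 and 289.8 CPM in T cell MEM. The ranges of the 4 labels overlapped. Within each library NK cells and T cell EFF were above ILC, while the order of NK cells, T cell EFF and T cell MEM changed between libraries. Summed over libraries, the level was 379 CPM in NK cells (372 to 385) and 369 CPM in T cell EFF (364 to 374), a log2 ratio of 0.04 (-0.01 to 0.08).

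NKT followed at 192 CPM (149.5 to 248 over libraries), below every library of T cell MEM. DC, whose libraries overlapped those of NKT, and Myeloid came next, and naive T cells (2 UMIs), B cells (4 UMIs) and T cells (3 UMIs) were at 9.19, 9.03 and 2.57 CPM with intervals that overlap. Stroma was at 2.26 CPM (2.14 to 2.46 over libraries). After thinning, 56.3% of NK cells carried a *Klrk1* UMI (54.7 to 57.8, 2373 of 4218 cells) and 85.7% without thinning, at a median of 5397 UMIs. B cells, which should lack the receptor, gave a background of 1.79% after thinning (2 of 112 cells). Without thinning, 3 of 124 B cells carried a UMI, at a median of 2811 UMIs. Stroma gave 0.435% thinned and 6.18% unthinned at its greater depth.

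Among T cells the receptor was higher in CD8 than in CD4 T cells. Cells picked by their unthinned transcripts as CD8 T (*Cd8a* or *Cd8b1* with a CD3 chain and no *Cd4*) had 402 CPM of *Klrk1* inside T cell EFF (349.9 to 426 over libraries), 439 CPM inside T cell MEM (415 to 531) and 345 CPM inside NKT (298 to 425). CD4 T cells without *Foxp3* had 199 CPM inside T cell EFF (71 cells, 133 to 458 over libraries), 122 CPM inside T cell MEM (137 cells, 98.4 to 213) and 147 CPM inside NKT (123 cells, 114 to 177). CD4 T cells with *Foxp3* had 38.4, 68.3 and 39.1 CPM in the same labels. In T cell MEM and NKT every library of the CD8 T cells was above every library of both CD4 groups, while in T cell EFF the CD4 cells without *Foxp3* reached the range of the CD8 T cells in at least 1 library. The pick by *Trdc* meant for gamma delta T cells found 58 cells with a median of 38772 UMIs, far deeper than any lymphocyte label, and was not used as that cell type.

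DC carried *Klrk1* at 198, 173, 192 and 183 CPM in M1, M2, M5 and M6, and Myeloid at 139.9, 122, 132 and 103 CPM. Every DC library was above every Myeloid library, and both labels were above naive T cells, B cells, T cells and Stroma in their sums. To set these values beside lymphocyte RNA in the same cells, the ratio of *Klrk1* UMIs to UMIs of genes of NK and cytotoxic T cells was taken. *Klrk1* per *Nkg7*, a granule protein of killer cells, was 1.14 in DC (0.838 to 2.11 over libraries), 0.331 in Myeloid, 0.191 in NK cells and 0.195 in T cell EFF. *Klrk1* per *Klrd1* (CD94) was 1.78 in DC, 0.813 in Myeloid, 0.583 in NK cells and 0.536 in T cell EFF. *Klrk1* per *Ncr1* was 9.71 in DC and 19.3 in T cell EFF against 0.842 in NK cells. In each library DC and Myeloid held more *Klrk1* per UMI of *Nkg7* or *Klrd1* than either killer cell label. Per *Ncr1*, DC lay between NK cells and T cell EFF. The same held per *Cd8a*, at 4.17 in DC, 51.3 in NK cells and 0.618 in T cell EFF.

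The 334 DC with no UMI of *Cd3d*, *Cd3e*, *Cd3g*, *Ncr1*, *Nkg7* or *Prf1*, of 556, had *Klrk1* at 208 CPM (193 to 223), and 59.6% of them (54.1 to 64.9) carried a UMI at a median of 7786 UMIs. Within the label, 119 cells with *Ccr7*, a marker of migratory DC, and without *Xcr1* or *Clec9a* had 268 CPM (288, 296, 281 and 222 in M1, M2, M5 and M6). The 288 cells with *Xcr1* or *Clec9a*, markers of cDC1, had 163 CPM (175, 142, 159 and 186), and the 149 with none of the 3 genes had 167 CPM. The *Ccr7* cells were highest in every library and did not overlap the *Xcr1* or *Clec9a* cells. *Ccr7* was not particular to DC, at 456 CPM there, 435 CPM in T cell MEM and 359 CPM in T cell EFF. The part of T cell RNA in the *Ccr7* cells was not tested. These groups of DC were picked on unthinned UMIs, after the values of the label had been seen. The pick of 334 cells did not use *Klrd1*, and these cells were shallower than the whole label (median 9549 UMIs). The part of free RNA and of doublets in the *Klrk1* of DC and of Myeloid was not tested.

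*Hcst* was counted across T cells, NK cells and ILC and was low in myeloid cells. In M1, M2, M5 and M6 it was at 265, 317, 324 and 320.4 CPM in T cell MEM, 238, 242, 299 and 260.2 CPM in NKT, 153, 210.2, 239 and 202 CPM in T cell EFF, and 178, 186, 193 and 188 CPM in NK cells. T cell MEM was above NKT and NK cells in every library, while the ranges of neighbors in the order overlapped. Naive T cells had 239 CPM (52 UMIs, 178 to 313), T cells 161 CPM and ILC 193 CPM. Myeloid had 84.1 CPM (67.1 to 97.1 over libraries), DC 35.3 CPM (27.7 to 41.4), B cells 27.1 CPM (12 UMIs) and Stroma 1.40 CPM. The Myeloid range was above that of DC and below those of NK cells, ILC and T cell EFF, with a log2 ratio of NK cells over Myeloid of 1.14 (1.06 to 1.23). Myeloid also held more T cell RNA than DC (*Cd3e* at 78.0 against 29.2 CPM, *Cd3d* at 131 against 48.3 CPM). The part of lymphocyte RNA in the *Hcst* of Myeloid was not tested. The interval of naive T cells held the sum of T cell EFF (205 CPM), while *Klrk1* had 2 UMIs there. After thinning, 35.3% of NK cells, 38.8% of T cell EFF and 39.6% of naive T cells (21 of 53) carried an *Hcst* UMI, against a background of 8.04% of B cells (9 of 112).

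*Tyrobp* was highest in NK cells, ILC, Myeloid and DC. In M1, M2, M5 and M6 it was at 1473, 1611, 1735 and 1739 CPM in NK cells, 1257, 1453, 1474 and 1390.2 CPM in ILC, 1157, 1211, 1289 and 1116 CPM in Myeloid, and 909, 776, 1063 and 830.5 CPM in DC. Every library of NK cells was above every library of Myeloid, with a log2 ratio of the sums of 0.48 (0.46 to 0.51), and every library of DC was below both. T cell MEM (267 CPM), T cell EFF (129 CPM), NKT (126 CPM) and B cells (124 CPM, 55 UMIs) followed, and Stroma had 7.86 CPM. In the B cell label 1 cell held 24 of the 55 *Tyrobp* UMIs. After thinning, 92.3% of NK cells (91.5 to 93.1) carried a UMI, against 10.0% of T cell EFF, 15.2% of B cells (17 of 112) and 1.84% of Stroma. The T cell EFF share was thus not above that of B cells, and the part of free RNA in it was not tested.

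**Figure D1:**
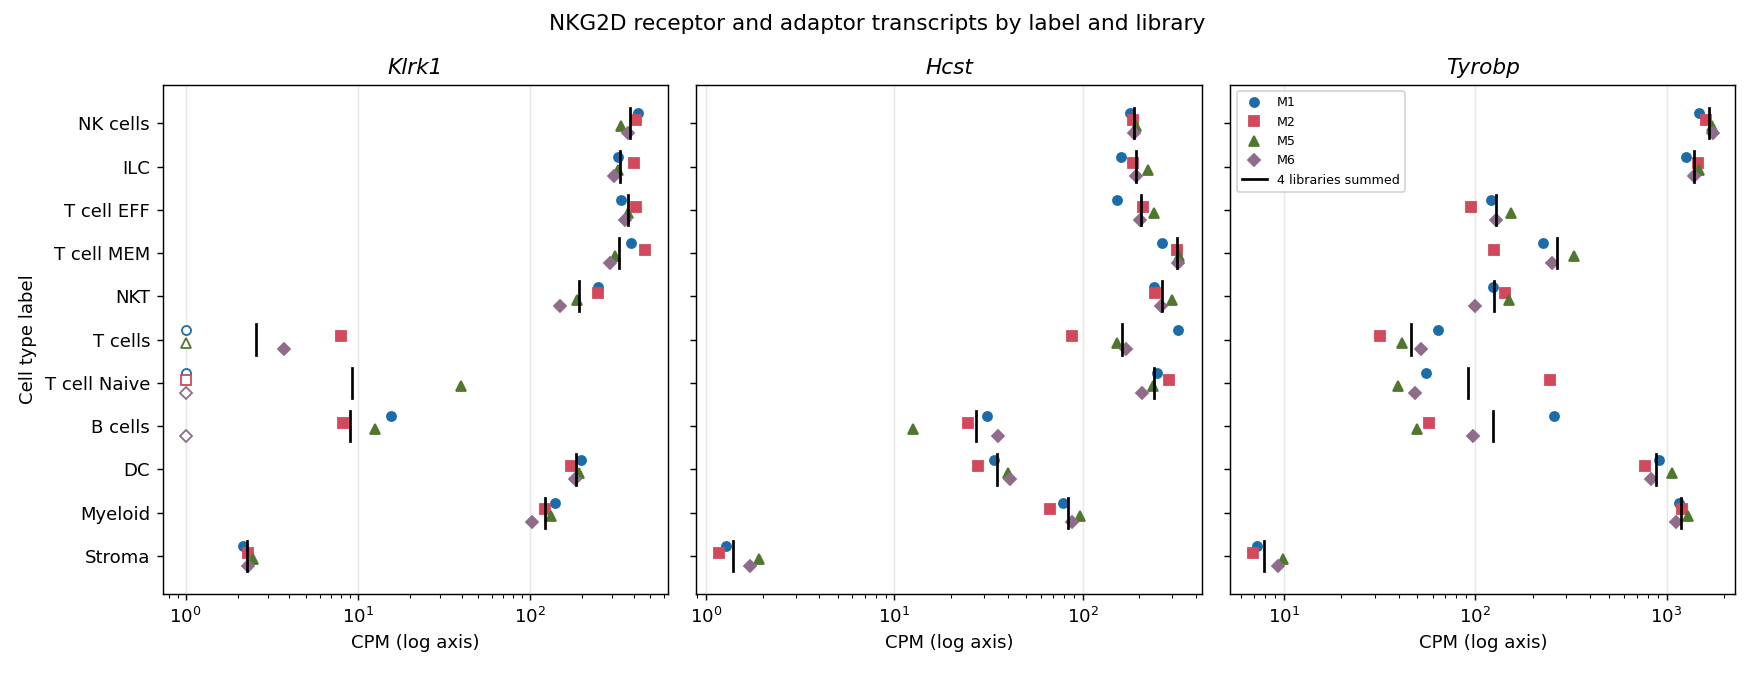
Level of *Klrk1*, *Hcst* and *Tyrobp* (CPM, log axis) in each cell label, with 1 symbol per library and a black line for the 4 libraries summed. Open symbols at 1 CPM mark libraries with no UMI. The *Klrk1* ranges of NK cells, ILC, T cell EFF and T cell MEM overlap, whereas *Tyrobp* is at 776 CPM or more in every library of NK cells, ILC, DC and Myeloid.

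The balance of the adaptors split the *Klrk1*-bearing labels. Per *Hcst* UMI there were 8.29 to 9.27 *Tyrobp* UMIs in the libraries of NK cells and 0.455 to 0.788 in those of T cell EFF. Summed ratios were 25.1 in DC, 14.1 in Myeloid, 8.87 in NK cells and 7.23 in ILC, and 0.846 in T cell MEM, 0.628 in T cell EFF, 0.474 in NKT, 0.385 in naive T cells and 0.287 in T cells. No library of a T cell label came near those of the NK, ILC and myeloid labels: the highest was 1.01 (T cell MEM in M5) and the lowest of the others was 6.64 (ILC in M5). A ratio is compared between labels only, since 3′ capture of the 2 transcripts may differ.

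**Figure D2:**
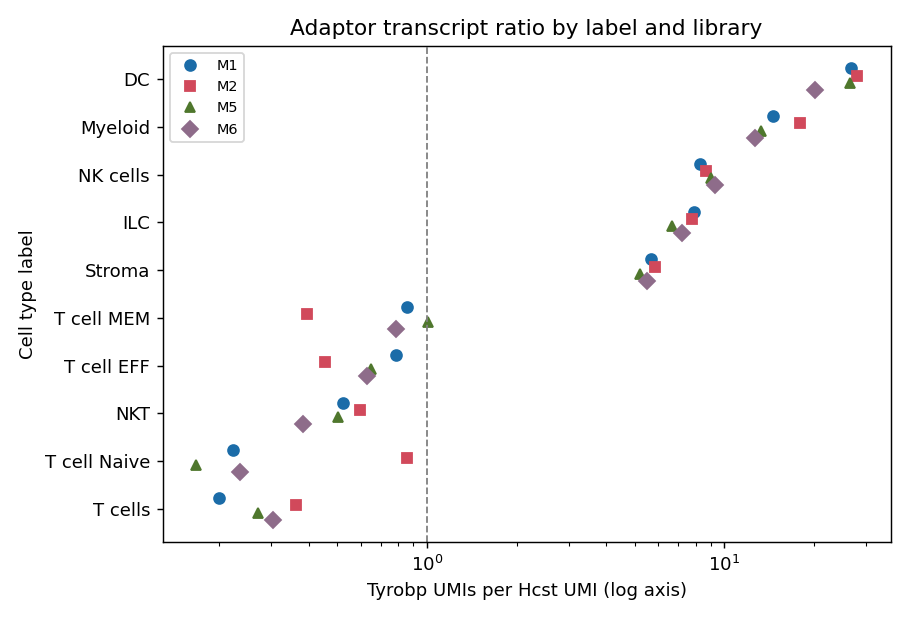
*Tyrobp* UMIs per *Hcst* UMI (log axis) in each label with 1 symbol per library. B cells are left out for their 12 *Hcst* UMIs, and the dashed line marks a ratio of 1. NK cells, ILC, DC and Myeloid lie between 6.64 and 28.0, Stroma between 5.19 and 5.86, and the T cell labels between 0.167 and 1.01.

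The joint shares in single cells come from the same UMIs after thinning and are no separate support for the split by adaptor balance. Of 2373 thinned NK cells with a *Klrk1* UMI, 34.2% carried UMIs of both adaptors, 58.6% of *Tyrobp* without *Hcst*, 2.11% of *Hcst* without *Tyrobp* and 5.1% of neither. Of 1872 T cell EFF with a *Klrk1* UMI, 3.58% carried both, 5.61% *Tyrobp* without *Hcst*, 36.0% *Hcst* without *Tyrobp* and 54.8% neither. Where no *Klrk1* UMI was found, both adaptors were carried by 32.2% of the NK label and 3.65% of the T cell EFF label. In DC with a *Klrk1* UMI, 70.3% of 165 cells carried *Tyrobp* without *Hcst* and 0.606% the reverse. At 2000 UMIs per cell a missing UMI does not show a missing transcript.

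ILC cells with an unthinned UMI of a CD3 chain had *Klrk1* at 313 CPM and *Tyrobp* at 1209 CPM (median 13329 UMIs), and those without had 364 and 1686 CPM (median 7659 UMIs). *Tyrobp* was lower in the CD3 cells in each library and stayed far above the T cell labels. Of ILC cells, 3.39% had a doublet score over 0.25, and the part of doublets and of depth in the CD3 counts was not tested.

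Genes that use or follow these adaptors were taken from a list fixed by function. Of 9 other receptors that couple to DAP12, *Trem2* (147 CPM), *Trem1* (85.6 CPM), *Clec5a* (71.7 CPM), *Cd300lb* (14.6 CPM) and *Sirpb1a* (10.4 CPM) were highest in Myeloid, *Siglech*, a marker of plasmacytoid DC, in DC (181 CPM), *Klra4* (23.0 CPM) and *Klra8* (0.607 CPM) in NK cells, and *Klrc2* (NKG2C) in T cell EFF (253 CPM, against 117 CPM in NK cells). *Fcer1g*, the related ITAM adaptor, was at 2016 CPM in Myeloid, 1125 CPM in NK cells, 1017 CPM in ILC and 518 CPM in DC, against 266 CPM in T cell EFF.

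The kinases that bind a phosphorylated ITAM are encoded by *Syk* and *Zap70*. *Syk* was at 107 CPM in Myeloid, 62.9 CPM in DC, 29.7 CPM in NK cells, 26.3 CPM in ILC and 8.65 CPM in T cell EFF, and highest in B cells at 269 CPM. *Zap70* was at 129 CPM in T cell EFF, 81.6 CPM in ILC, 67.7 CPM in NK cells, 28.2 CPM in Myeloid and 13.4 CPM in DC. Of the phospholipases, *Plcg1* was at 46.1 CPM in T cell EFF and 2.05 CPM in NK cells, and *Plcg2* at 3.75 and 24.2 CPM. The PI3 kinase genes *Pik3r1* (341 and 210.2 CPM) and *Pik3cd* (69.0 and 59.6 CPM) and *Vav1* (35.5 and 30.6 CPM) were in both NK cells and T cell EFF. In Stroma, 6 of the 10 signaling genes (*Vav1*, *Pik3cd*, *Plcg2*, *Zap70*, *Lcp2* and *Lat*) were under 1 CPM. The share of all genes under 1 CPM in Stroma is not given here. Whether the signaling genes differ from other genes in this was not tested.

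Of the ligands, *Ulbp1* was the most counted, with 22582 UMIs, of which 83.6% were in Stroma. Stroma also held 75.6% of the UMIs of all genes. The level was 27.5, 25.5, 31.7 and 26.5 CPM in Stroma in M1, M2, M5 and M6, and 26.1, 26.7, 25.7 and 29.2 CPM in T cell EFF. These 2 labels overlapped and lay above every library of NK cells (17.2, 16.8, 17.5 and 15.7 CPM), ILC (13.9, 15.8, 14.6 and 13.2 CPM) and Myeloid (12.1, 12.9, 10.3 and 11.4 CPM). The log2 ratio of Stroma over Myeloid was 1.17 (1.02 to 1.31). T cell MEM (10.6 CPM), NKT (11.2 CPM) and DC (6.86 CPM) were below Stroma and T cell EFF. The libraries of T cell MEM (3.62 to 13.4 CPM) and NKT (8.65 to 13.6 CPM) overlapped those of Myeloid. Naive T cells had no UMI, which allows up to 13.8 CPM (3 UMIs). B cells had 6.78 CPM (3 UMIs, 1.40 to 19.8). After thinning, 5.13% of Stroma cells (4.79 to 5.48) and 4.74% of T cell EFF (4.06 to 5.49) carried a UMI, against 2.68% of B cells (3 of 112). With 3 cells, the B cell share is too uncertain to place the other shares above it. Unthinned shares were 44.0% in Stroma and 22.7% in T cell EFF.

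*H60b* was spread in another way, with its higher levels in T cells outside the effector label. In M1, M2, M5 and M6 it was at 12.4, 13.3, 17.5 and 23.9 CPM in T cell EFF and 7.96, 8.20, 7.18 and 7.54 CPM in Stroma. The libraries lay between 36.3 and 49.5 CPM in NKT and between 23.9 and 36.1 CPM in T cell MEM. Every NKT library was above every T cell MEM library, and every T cell EFF library was above every Stroma library. Naive T cells had 64.3 CPM (14 UMIs, 35.2 to 108) and T cells 47.9 CPM (56 UMIs, 36.2 to 62.2), which overlapped NKT. NK cells had 11.9 CPM, Myeloid 9.66 CPM and DC 9.56 CPM. CD4 T cells with and without *Foxp3* inside NKT overlapped in their intervals (38.2 CPM, 27.5 to 51.6, and 37.1 CPM, 23.0 to 56.7).

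UMIs counted as *Raet1e* were mostly in Myeloid. The gene had 988 UMIs, of which 60.5% were in Myeloid, a label with 4.15% of all UMIs. Myeloid had 15.6, 17.2, 15.8 and 15.0 CPM in M1, M2, M5 and M6, against 2.18, 2.22, 2.62 and 1.95 CPM in ILC and 2.57, 1.47, 1.90 and 2.19 CPM in NK cells. Every Myeloid library was above every library of ILC, NK cells, T cell EFF, T cell MEM, NKT, DC and Stroma. Stroma had 0.113 CPM (78 UMIs), a log2 ratio of Stroma over Myeloid of -3.91 (-4.05 to -3.76) with 1 CPM added to both and of -6.22 with 0.1 CPM, so its size depends on the amount added. Naive T cells, B cells and T cells had no UMI, which allows up to 13.8, 6.78 and 2.57 CPM (3 UMIs each) in their sums, and their single libraries were too shallow to be placed below Myeloid in every case. Per UMI of *Lyz2*, a myeloid gene that also appeared in 13.4% of thinned NK cells and 3.54% of Stroma cells, there were 0.00237 *Raet1e* UMIs in Myeloid, 0.00265 in T cell EFF, 0.00405 in ILC, 0.0151 in NK cells and 0.00848 in Stroma. By library the ratio in T cell EFF ran from 0.00124 (M6) to 0.00738 (M2) and overlapped that in Myeloid (0.00217 to 0.00256), while those in ILC, NK cells and Stroma were higher than in Myeloid in each library.

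*Raet1d* was rarely counted, with 54 UMIs, of which 35 were in Myeloid (0.921 CPM, 0.642 to 1.28). Libraries M1, M2, M5 and M6 had 0.471, 1.22, 1.32 and 0.766 CPM there. NK cells had 6 UMIs, Stroma 3 and DC none, which allows up to 0.368 CPM (3 UMIs). Since most of its 3′ windows are shared with *Raet1e*, these values may be of either gene or of an RAE-1 gene missing from the table. Of the other ligands, *H60c* had 512 UMIs, with 0.532 CPM in Stroma, 0.704 CPM in T cell EFF, 1.15 CPM in T cell MEM (0.596 to 2.02) and 3.17 CPM in NKT (1.69 to 5.41, 13 UMIs). *Raet1a*, *Raet1b*, *Raet1c* and *H60a* are not among the names of the table and were not analysed here. Whether reads of these RAE-1 genes were counted as *Raet1e* or *Raet1d* in the Balb/c cells was not tested.

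**Figure D3:**
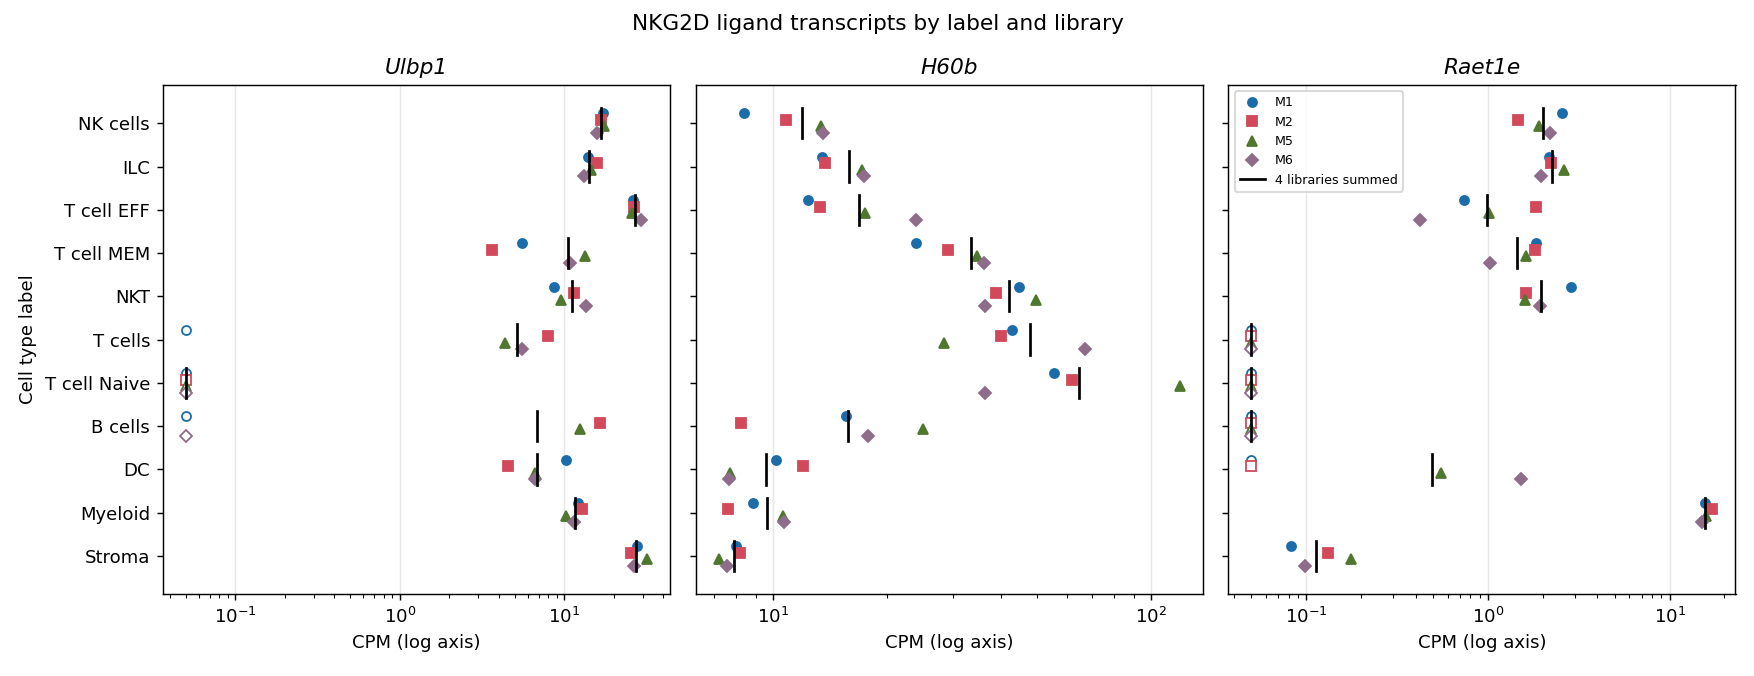
Level of *Ulbp1*, *H60b* and *Raet1e* (CPM, log axis) in each label, with 1 symbol per library and a black line for the 4 libraries summed. Open symbols and lines at 0.05 CPM mark values of 0. *Ulbp1* is highest in Stroma and T cell EFF, *H60b* in T cell labels other than T cell EFF, and *Raet1e* in Myeloid at 15.0 to 17.2 CPM.

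The Myeloid label was divided to see which cells held *Raet1e*. Cells with 2 or more thinned UMIs of the mast cell genes *Cpa3*, *Cma1* and *Mrgprb1* (292 cells) held 2 *Raet1e* UMIs, 1.09 CPM (0.132 to 3.95), with 3.31 CPM in M1 and 0 in the other libraries. Cells with none of them (2226 cells) had 16.6 CPM, and 16.7, 18.0, 16.6 and 15.6 CPM in M1, M2, M5 and M6. The groups did not overlap. Cells with 2 or more UMIs of C1q genes, which mark macrophages, had 17.0, 19.8, 23.3 and 17.9 CPM (683 cells) against 14.5, 13.7, 12.9 and 13.3 CPM in cells with none (1618 cells), again without overlap. The splits were made separately, so the cells without C1q may include cells with mast cell or neutrophil genes.

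Cells with 2 or more UMIs of *Mrc1*, the mannose receptor of tissue macrophages, had the highest value of any split, 27.4 CPM (20.3 to 36.3) in 99 cells, against 14.4 CPM. Their libraries ran from 15.8 (M5) to 35.1 CPM (M2) and were above all libraries of the cells without *Mrc1*. By *Arg1*, arginase, the sums were 18.2 and 14.8 CPM, and the library ranges overlapped. Cells rich in the neutrophil genes *S100a8*, *S100a9* and *Retnlg* had 11.6 CPM (7.35 to 17.4, 23 UMIs) against 15.5 CPM, also with overlap. The mast cell, neutrophil, *Mrc1* and *Arg1* splits were added after the values of the label had been seen.

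**Figure D4:**
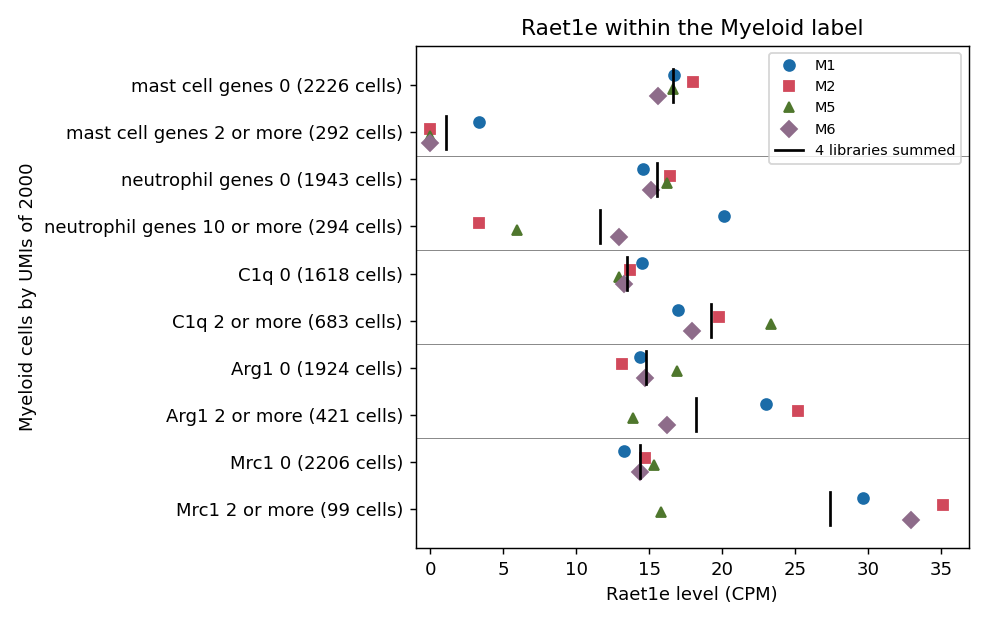
*Raet1e* level (CPM) in Myeloid cells divided by thinned UMIs of marker genes, with 1 symbol per library and a black line for the 4 libraries summed. The cells with mast cell genes lie at 0 to 3.31 CPM, below the cells without them at 15.6 to 18.0 CPM.

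*Raet1e* was also found in a small part of Stroma. The 528 Stroma cells with 2 or more UMIs of *Col3a1*, a fibroblast collagen, had 2.91 CPM (1.64, 3.88, 6.55 and 2.46 in M1, M2, M5 and M6), and the 13891 with none had 0.0412 CPM (0.0291 to 0.0493 over libraries). The 419 with *Xist* had 3.66 CPM (1.60 to 5.14 over libraries) and the 15223 without had 0.0398 CPM. Neither split overlapped. *Ulbp1* went the other way, with 13.8 CPM in *Col3a1* cells against 27.9 CPM, and 16.7 CPM in *Xist* cells against 27.5 CPM. *H60b* was at 7.90 and 7.70 CPM in the *Col3a1* groups, and 5.64 and 7.91 CPM in the *Xist* groups. Stroma cells with *Xist* also had more *Klrk1* (21.2 against 1.88 CPM) and *Tyrobp* (43.9 against 7.13 CPM), and the part of leukocyte RNA in their *Raet1e* was not tested.

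*Ulbp1* was higher in cells with transcripts of cell division. Cells with a UMI of *Mki67* or *Top2a* after thinning had 45.3, 49.9, 56.5 and 52.3 CPM of *Ulbp1* in Stroma in M1, M2, M5 and M6, against 19.2, 15.9, 19.2 and 17.9 CPM in Stroma cells without, a log2 ratio of the sums of 1.41 (1.36 to 1.47). In T cell EFF they had 34.1, 40.3, 41.1 and 51.5 CPM against 19.2, 14.8, 15.4 and 16.3 CPM, a log2 ratio of 1.28. The sums were 32.2 and 12.4 CPM in NK cells, 28.3 and 10.7 CPM in ILC, and 24.4 and 8.70 CPM in Myeloid, log2 ratios of 1.31, 1.32 and 1.39. Cells with these transcripts were higher in all 4 libraries of each of the 5 labels, and the groups did not overlap. Of the members with at least 5 CPM in a label, *Ulbp1* was the 1 at least 2-fold higher, of 3 in Stroma, 5 each in T cell EFF, NK cells and ILC, and 6 in Myeloid, and none was at least 2-fold lower. *Raet1e* in NK cells, below this minimum, had 4.26 against 1.40 CPM (36 and 43 UMIs). Over all genes of at least 5 CPM, 3.31% were at least 2-fold higher in Stroma, 2.76% in T cell EFF, 3.91% in NK cells, 2.29% in ILC and 2.16% in Myeloid, and 1.16%, 0.130%, 0.412%, 0.346% and 0.619% at least 2-fold lower.

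The other members of at least 5 CPM differed less with these transcripts. *Klrk1* had 376 CPM in NK cells with and without them, and 372 and 364 CPM in T cell EFF. *Hcst* was lower in cells with them, at 129 against 203 CPM in NK cells and 164 against 234 CPM in T cell EFF, log2 ratios of -0.65 and -0.51, and lower in every library of both. *Tyrobp* was lower with these transcripts in NK cells (1217 against 1787 CPM), ILC (1161 against 1453 CPM) and Myeloid (957 against 1233 CPM) in every library, and higher in T cell EFF (152 against 112 CPM) in every library. *H60b* had log2 ratios of 0.00 in Stroma and -0.36 in T cell EFF. Expressed as a share of thinned cells, *Ulbp1* was found in 11.9% of Stroma cells with and 3.15% of those without. The splits outside Stroma were added after the values of Stroma had been seen.

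*Ulbp1* was also higher in cells with over 10% mitochondrial UMIs, a common sign of stressed or broken cells. In Stroma they had 91.1, 83.5, 107 and 94.5 CPM in M1, M2, M5 and M6 (1868 cells, median 8212 UMIs), against 25.5, 23.8, 28.7 and 24.9 CPM in the others (13819 cells, median 45230 UMIs). The sums were 60.6 and 25.2 CPM in T cell EFF, 34.7 and 15.7 CPM in NK cells, 31.9 and 13.7 CPM in ILC, and 28.3 and 10.5 CPM in Myeloid, with every library higher in the cells over 10%. Of the members with at least 5 CPM, *Ulbp1* was the 1 at least 2-fold higher in each label, and *Raet1e* in Myeloid the 1 at least 2-fold lower, at 6.67 against 16.3 CPM. Over all genes, 10.9% were at least 2-fold higher in Stroma, 3.26% in T cell EFF, 4.92% in NK cells, 2.16% in ILC and 2.23% in Myeloid, and 9.59%, 2.05%, 5.89%, 1.91% and 4.73% at least 2-fold lower. *Xist*, a nuclear RNA, was higher in the same cells (61.7 against 17.6 CPM in Stroma and 2737 against 1021 CPM in NK cells), as was *Mki67* in Stroma (163 against 72.1 CPM). The part of cell damage and depth in these values was not tested.

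Crossing both splits, Stroma cells up to 10% had 17.1 CPM of *Ulbp1* without and 44.8 CPM with division transcripts, and those over 10% had 48.7 and 160.1 CPM (151 to 169). T cell EFF had 15.3 and 39.0 CPM, and 41.0 and 90.1 CPM (71.7 to 112). NK cells had 11.8 and 29.8 CPM, and 22.5 and 76.1 CPM (52.4 to 107). ILC had 10.5 and 27.0 CPM, and 19.5 and 90.7 CPM, and Myeloid cells over 10% had 17.6 and 65.6 CPM. In each label the value with division transcripts was above the value without them on both sides of the 10% limit, with intervals that did not overlap.

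**Figure D5:**
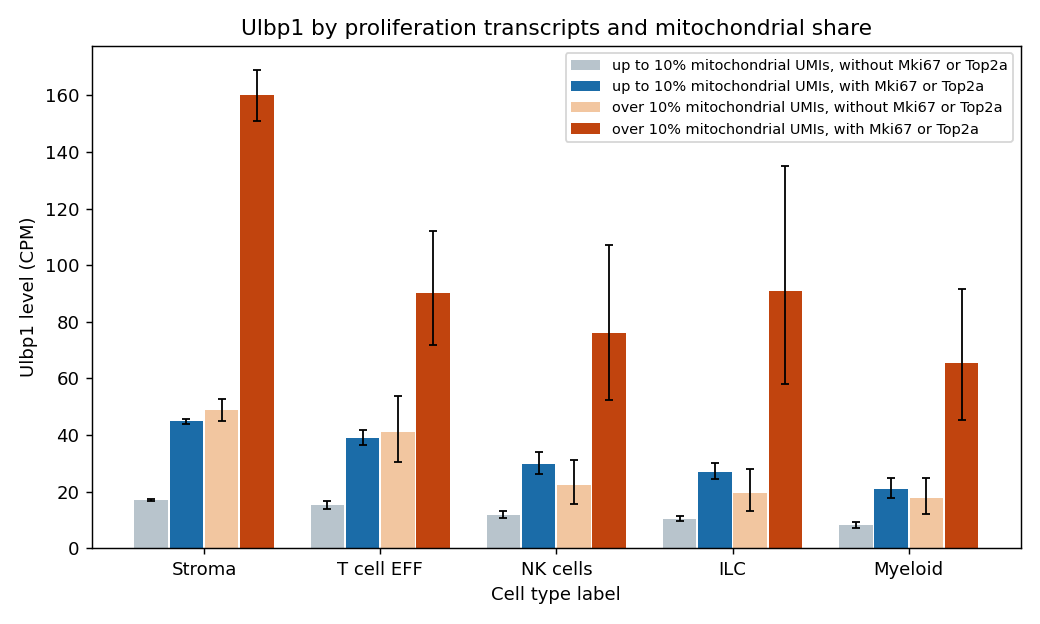
*Ulbp1* level (CPM) in 5 labels, divided by a thinned UMI of *Mki67* or *Top2a* and by a mitochondrial share of 10%. Bars are the 4 libraries summed, and error bars are exact 95% Poisson intervals. The cells with both features are highest in each label, from 65.6 CPM in Myeloid to 160.1 CPM in Stroma.

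Most cells carried no ligand or 1. Without thinning, 44.3% of Stroma cells had no UMI of any of the 4 ligands, 41.1% had 1 ligand gene and 14.5% had 2, at a median of 40692 UMIs. In Myeloid, 72.1% had none, 20.6% had 1 and 5.90% had 2, at a median of 8027 UMIs, and in NK cells 80.9% had none. The depths differ, so these shares are not compared. Among genes listed for shedding NKG2D ligands, *Adam17* was at 127 CPM in Myeloid and 28.5 CPM in Stroma, *Mmp14* at 96.3 and 35.0 CPM, and *Adam10* at 53.0 and 17.2 CPM. Only *Mmp14* was highest in Myeloid. *Adam17* was at 132 CPM in NKT (121 to 143) and *Adam10* at 57.0 CPM in T cell MEM (52.5 to 61.8), intervals that hold the Myeloid values.

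Genes with the profile most like each member were named by Pearson's r of log2(CPM + 1) over 11 labels, which share libraries and total counts. For *Klrk1* these were *Il12rb2* (0.97), *Klrd1*, *Serpinb9* and *Klrc1* (each 0.95) and *Serpinb6b* (0.94), among 5035 genes of at least 50 CPM. For *Hcst* they were *Ms4a4b* and *Lck* (each 0.99), *Gimap7*, *Galnt6* and *Gramd1b*, and for *Tyrobp* *Fcer1g* (0.95), *Cmpk1*, *Rnf130*, *Fam49b* and *P2ry14*. For *Ulbp1*, *Zgrf1*, *Coq9*, *Tmem209* and *Spcs1* were among the first 5, for *H60b* *Prkca*, *Rmnd5a*, *A630023P12Rik*, *Lnx2* and *Tnrc6a*, for *Raet1e* *Cbr2*, *Retnlg*, *Abcc3*, *Fgd4* and *Mrgpra2b*, and for *Raet1d* the mast cell genes *Ms4a2*, *Mrgprb2*, *Fcer1a*, *Tph1* and *Mcpt2*. Over 34 profiles of label by library, 3 of the 5 named genes stayed for *Klrk1*, 1 for *Hcst*, 2 for *Tyrobp* and none for the 4 ligands. For *Raet1e* the 34 profiles put *Cma1* first, a mast cell gene, although the cells with mast cell genes held 2 of its UMIs. The *Raet1d* profile rests on 54 UMIs, 35 of them in Myeloid, which also held the cells with mast cell genes. How many *Raet1d* UMIs lay in those cells is not given here.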

How the data were processed

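Single-cell mRNA-seq (Chromium 3′ V3) was made from CD45-enriched CT26 tumor cells. The authors aligned and counted reads with Cell Ranger 3.0.2 on mm10 (GRCm38, Ensembl annotation), and applied a minimum of UMIs per cell. The table the authors deposited gives UMI counts of every gene in every cell without scaling, and beside them the library name and an ImmGen-based label. Every cell in the table has at least 801 genes with a UMI, and in all 33961 cells the counts add up to the total that the table itself lists. No step against doublets or free RNA is given in the sources used here. The library names match no sample label, so no treatment comparison was made.

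The members and lists were chosen with earlier results of these data known. The genes named are the 7 members, a pathway list fixed by function, markers, and the 5 genes of highest correlation with each member among genes of at least 50 CPM (5 CPM for ligands) in a label, of which 1 is not reported here. Counts were summed by label (Python 3.11.15, numpy 2.4.6, scipy 1.17.1, pandas 2.3.3). Log2 ratios have 1 CPM added, and their interval sets the lower bound of one level against the upper bound of the other. Cells were thinned without replacement to 2000 UMIs for shares and for the splits by division, Myeloid and Stroma genes, and shallower cells were left out. The T cell picks and the splits of DC and ILC used unthinned UMIs, and the split by mitochondrial share all cells. Genes at least 2-fold apart were counted among those of at least 5 CPM. Doublets were scored with scrublet in scanpy 1.11.5, whose automatic threshold called 0.279% of M5, so a score of 0.25 was used. Such cells stayed in the main values. Steps were tested on simulated data. Positions are from GENCODE M21, and promoter windows from RefSeq. Alternatives changed the pseudocount, weighting, depth, cell filters, profiles and libraries.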

Additional observations from a re-analysis of the deposited data

How the results depend on the processing

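No paired analysis was possible because no sample groups were compared and no result comes from a test. Labels and splits share the 4 libraries, and their values are set side by side within each. Of 63 recomputed log2 ratios, 44 stayed within the counting interval of the reported value, 18 moved beyond it and 1, with an interval that excludes 0, reversed. The *Klrk1* ratio, whose interval holds 0, also changed sign in 2 of those that moved. With each cell weighted equally (mean over cells), *Klrk1* in NK cells over T cell EFF became 0.11, *Hcst* in NK cells over Myeloid 1.68 and *Tyrobp* 0.33, and in Stroma over Myeloid *Ulbp1* became 1.39, *Raet1e* -3.64 and *H60b* 0.02, against -0.27 (-0.43 to -0.09) from the sums. No direction is therefore given for *H60b* between these labels. With 0.1 CPM added in place of 1 CPM, *Raet1d* went from -0.94 to -3.29 and *Raet1e* to -6.22. Without doublet scores over 0.25, *Klrk1* became -0.04 and *Tyrobp* 0.42, and without cells over 10% mitochondrial UMIs *Tyrobp* became 0.42. Leaving out 1 library at a time gave -0.04 to 0.11 for *Klrk1*, 1.08 to 1.19 for *Hcst*, 0.41 to 0.51 for *Tyrobp*, -1.03 to -0.84 for *Raet1d*, -3.94 to -3.89 for *Raet1e*, 1.09 to 1.25 for *Ulbp1* and -0.36 to -0.18 for *H60b*. The *Ulbp1* ratio of Stroma cells with over those without division transcripts, 1.41, became 1.65 when cells were thinned to 4000 UMIs, 1.34 without cells over 10% mitochondrial UMIs, and 1.33 to 1.55 with 1 library left out. The alternatives for that split, the splits of Myeloid, DC and ILC and the split by mitochondrial share were chosen after seeing the data. Of 66 recomputed shares, levels and gene lists, 43 stayed within the interval and 23 moved, most of them with the thinning depth. *Klrk1* in DC went from 186 to 199 CPM without doublet scores over 0.25, and the *Ulbp1* share in Stroma fell from 5.13% to 3.95% without cells over 10% mitochondrial UMIs. Depth limits *Raet1d*, with 54 UMIs in all, and the labels of naive T cells and B cells, where 3 UMIs come to 13.8 and 6.78 CPM. The mice were Balb/c, while the reference is from another strain. The effect of strain differences on the counts of the ligands, *Klra4* and *Klra8* was not tested.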
